A study of Rattus norvegicus with 36 samples.

Results

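The genes described here are 6 genes of the circadian clock: Per1 (ENSRNOG00000007387) and Per2 (ENSRNOG00000020254), Nr1d1 (ENSRNOG00000009329), Dbp (ENSRNOG00000021027), Arntl (ENSRNOG00000014448, also called Bmal1) and Clock (ENSRNOG00000002175). They were taken by identifier as genes of the clock, with earlier results of these data known, and make up 6 of the 32623 gene identifiers in the count files. The files hold no symbols, so each symbol rests on this fixed pairing with its identifier. All 6 passed the filter on low counts in every comparison, and the lowest count of any of them in any library was 692, for Arntl.

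The study sequenced RNA from 2 brain regions of Sprague Dawley rats (spelt Sparague Dawley in the labels) that had been trained in the rat gambling task, in which an animal picks among light signals that carry rewards and punishments of different size and odds. Rats with a settled choice pattern were called risk-averse or risk-seeking, and 2 tissues were dissected: the prefrontal cortex (PFC), cortical tissue that serves planning and control of choice, and the nucleus accumbens (NAc), a reward area of the ventral striatum. The 36 libraries came from 19 rats and form 4 groups of 9: risk-averse PFC, risk-seeking PFC, risk-averse NAc and risk-seeking NAc. All 9 risk-averse rats and 8 of the 10 risk-seeking rats gave both regions, rat R6 gave PFC only and rat N9 gave NAc only. Every rat had learned the task, and no untrained group is described in the labels used here. The labels give no drug or transgene, and age, sex and the hour at which the rats were killed are not among them.

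The mammalian clock is a transcriptional loop. CLOCK and the product of Arntl pair up as an activator that binds E-boxes in DNA and switches on the Per genes, Nr1d1 and Dbp, and the PER proteins, with CRY proteins, later shut that activator down. NR1D1, a nuclear receptor also known as REV-ERB alpha, closes a second loop by repressing Arntl, while DBP carries the rhythm to output genes through D-boxes. In cortex and striatum the transcripts of Arntl, Nr1d1, Dbp and the Per genes cycle over the day, and Arntl peaks out of phase with the others. Per1 also responds within minutes to neuronal activity and to glucocorticoids.

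Gene counts per library came to 18436025 at the lowest and 34761269 at the highest. A second property of the libraries moved with risk preference and bears on the results below: the unassigned share, which is the percentage of uniquely aligned read pairs that the counting tool gave to no annotated gene. Risk-averse rats averaged 25.01% ± 1.98 in PFC and 27.6% ± 2.61 in NAc, risk-seeking rats 23.3% ± 0.666 and 25.7% ± 1.022 (SD, n = 9 each). The 4 rats with the highest shares, B2, B3, R7 and BR9, were all risk-averse. Levels are given as CPM, the count of a gene set against the total of its library, scaled by the trimmed mean of M values, a correction for library composition. They are not divided by transcript length, so levels are compared between samples and never between genes. RNA came from whole tissue, in which fewer cells of a type and less RNA per cell cannot be told apart, and markers of the cell types in each dissection were not analysed here because no other identifier could be given a symbol.

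**Figure D1:**
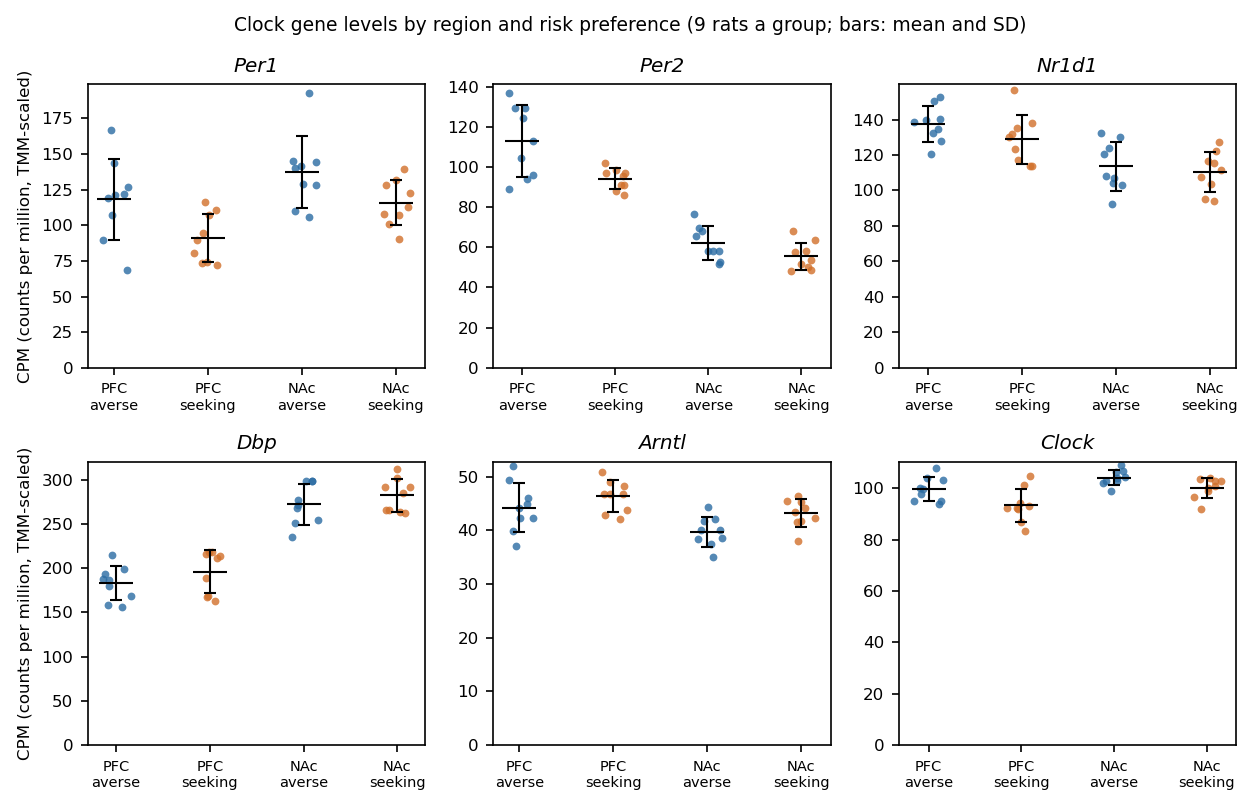
Level of each clock gene (vertical axis, CPM from 0) in the 4 groups of 9 libraries (horizontal axis). Each point is 1 rat, blue for risk-averse and orange for risk-seeking, and the bars show mean and SD: Per2 was higher in all 18 PFC libraries than in any NAc library, Dbp was higher in all 18 NAc libraries than in any PFC library, and the other 4 genes overlapped between regions.

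The first comparison was between regions. Its fit held no term for the animal, so the libraries of a rat were treated as independent. Every clock gene differed between PFC and NAc: Per2, Nr1d1 and Arntl were higher in PFC, and Per1, Dbp and Clock were higher in NAc. The differences ran from 1.75-fold for Per2 to 1.06-fold for Clock. All 6 passed edgeR's quasi-likelihood test at a Benjamini-Hochberg adjusted p under 0.05, in a comparison in which 77.5% of the genes tested passed (38.2% higher and 39.4% lower in PFC). Passing was therefore the common outcome for a gene here, and the sizes are given beside it. Over all genes tested the median size of the log2 difference was 0.319. Per2 and Dbp lay above that median, and Per1, Nr1d1, Arntl and Clock lay below it. The share of all genes without overlap between regions, or with the same order in every rat, was not counted, so those traits have no background here.

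Per1 and Per2, the paralogous repressors of the loop, went in opposite directions. Per2 ranged from 86.0 to 137 CPM (median 97.2) over the 18 PFC libraries and from 48.2 to 76.7 CPM (median 58.1) over the 18 NAc libraries. The regions did not overlap for Per2, and it was higher in PFC in 17 of 17 rats. Its log2 difference, PFC minus NAc, was 0.81 ± 0.06 (SE, adjusted p = 4.56e-16, edgeR), and within single rats it lay between 0.58 and 0.98. Per1 ranged from 68.5 to 167 CPM (median 107) in PFC and from 90.7 to 193 CPM (median 128) in NAc. These ranges overlapped widely because rats differed so much in Per1, yet each of 17 rats had more Per1 in NAc than in its own PFC. The log2 difference was -0.28 ± 0.09 (SE, adjusted p = 0.0039, edgeR). In the alternative fit with the animal as a block it was -0.30 ± 0.04 (SE, adjusted p = 1.96e-07, edgeR).

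The Per2 promoter is shown because Per2 had the largest regional difference of the 6 and the only preference difference that passed. The 250 bases before the RefSeq start of Per2 (build GRCr8, chr9:99496994-99497243, minus strand, written in the direction of the gene) hold 1 match each to 2 clock motifs, in capitals: TTATGTAA, a D-box, at positions -192 to -185, and CACGTT, a variant E-box, at -62 to -57, counting the base just before the start as -1.
Per2: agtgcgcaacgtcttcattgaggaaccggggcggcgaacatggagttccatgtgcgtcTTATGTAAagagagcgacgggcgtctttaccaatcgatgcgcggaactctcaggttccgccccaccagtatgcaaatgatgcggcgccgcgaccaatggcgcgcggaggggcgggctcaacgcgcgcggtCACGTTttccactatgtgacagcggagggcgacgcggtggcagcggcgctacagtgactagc
On either strand, CACGTT occurs in 4.07% and TTATGTAA in 0.828% of all 33469 RefSeq windows of this length. The Per1 window held no match to the motifs searched. It starts from a site inside the RefSeq span of the gene, so it is not the stretch before the first exon.

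Dbp, the output transcription factor of the D-box, was the second gene with no overlap between regions. Its level ran from 156 to 218 CPM (median 188) in PFC and from 236 to 313 CPM (median 274) in NAc. All 17 rats had more Dbp in NAc, the log2 difference was -0.55 ± 0.04 (SE, adjusted p = 2.73e-14, edgeR), and within single rats it lay between -0.70 and -0.38. The difference corresponds to 1.47-fold more Dbp in NAc.

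Nr1d1, the repressor of Arntl, ranged from 114 to 157 CPM (median 134) in PFC and from 92.5 to 132 CPM (median 110) in NAc. The regions overlapped, with 10 of 18 PFC libraries above every NAc library, but the order within a rat was the same in 17 of 17, higher in PFC. The log2 difference was 0.25 ± 0.05 (SE, adjusted p = 1.2e-05, edgeR). Dbp and Nr1d1 are both E-box targets of the same activator, and they differed between regions in opposite directions.

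The activator genes differed least. Arntl ranged from 37.1 to 51.9 CPM (median 45.5) in PFC and from 35.0 to 46.5 CPM (median 41.8) in NAc, with a log2 difference of 0.13 ± 0.04 (SE, adjusted p = 0.0021, edgeR). Clock ranged from 83.3 to 108 CPM (median 95.3) in PFC and from 92.2 to 109 CPM (median 103) in NAc, with a log2 difference of -0.09 ± 0.03 (SE, adjusted p = 0.0038, edgeR). Arntl was higher in PFC in 13 of 17 rats, and Clock was higher in NAc in 13 of 17. The unassigned share was higher in NAc than in PFC, and with it as a covariate 3 of the 6 genes still passed (Per2, Dbp and Nr1d1), against 70.8% of all genes in that fit. Per1 then had a log2 difference of -0.20 (adjusted p = 0.108, edgeR), Arntl of 0.09 (adjusted p = 0.0652) and Clock of -0.07 (adjusted p = 0.0631), each in its former direction.

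Promoter windows of Nr1d1 and Arntl are shown because these genes repress and are repressed within the second loop. They also moved against each other in PFC (Pearson's r = -0.734 over 18 rats), while in NAc r was -0.177. A link between the motifs and these values was not tested. Both windows are from RefSeq, GRCr8. The Nr1d1 window (chr10:84231813-84232062, minus strand) holds the variant E-box CACGTT on its reverse strand, in capitals at -174 to -169. The window of Arntl, listed as Bmal1 (chr1:176766078-176766327, plus strand), holds TNGGTCA, the core to which ROR and REV-ERB receptors bind, in capitals at -16 to -10.
Nr1d1: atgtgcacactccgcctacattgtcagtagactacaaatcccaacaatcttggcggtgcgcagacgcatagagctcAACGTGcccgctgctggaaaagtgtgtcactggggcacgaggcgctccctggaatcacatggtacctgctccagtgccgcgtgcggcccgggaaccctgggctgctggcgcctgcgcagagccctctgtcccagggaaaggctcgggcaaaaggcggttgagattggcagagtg
Arntl: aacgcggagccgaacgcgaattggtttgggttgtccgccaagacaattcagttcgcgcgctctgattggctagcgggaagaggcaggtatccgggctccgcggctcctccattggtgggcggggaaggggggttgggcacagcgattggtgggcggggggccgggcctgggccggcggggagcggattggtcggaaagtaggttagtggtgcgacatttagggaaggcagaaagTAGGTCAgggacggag
A second RefSeq start of Nr1d1 has the full E-box CACGTG at -191 to -186, shown with the bases around it (chr10:84229628-84229657, minus strand).
Nr1d1 second start: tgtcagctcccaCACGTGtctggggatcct
Of all 33469 windows, 9.47% hold TNGGTCA and 5.59% hold CACGTG on either strand. Also searched were TTATGCAA, a second D-box (0.789% of windows), and TGACGTCA, the cyclic AMP response element (1.59%). Windows of Dbp and Clock held none of the 6 motifs. A match describes the letters of a window and is not evidence of binding, and a window without one says nothing of the factor. No motif searched overlapped another in these windows.

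The second comparison asked whether the clock genes differed with risk preference. In PFC, Per2 was lower in risk-seeking rats, by 1.21-fold, and it was the only one of the 6 to pass. The share of all genes that passed in this comparison was 23.3% (11.4% lower in risk-seeking), so 1 of 6 is near the background. Per1 had the larger difference of the pair and missed the threshold. In NAc no clock gene passed, and neither did any other gene (0.0% of 15418). How the rats of the preference groups overlap was not counted over all genes. The counts of rats below therefore have no background.

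Per2 in risk-averse PFC ran from 88.9 to 137 CPM (median 113), and in risk-seeking PFC from 86.0 to 102 CPM (median 95.3). The means were 113 ± 17.8 and 94.1 ± 5.24 CPM (SD, n = 9 each). Of the 9 risk-averse rats, 6 lay above the highest risk-seeking rat, all 9 risk-seeking rats lay below the risk-averse median, and the lower ends of the groups overlapped. The risk-averse rats were thus spread over a wide range and the risk-seeking rats sat together at its lower end. The log2 difference, risk-seeking minus risk-averse, was -0.27 ± 0.07 (SE, adjusted p = 0.0139, edgeR).

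That Per2 difference moved with the unassigned share. Over the 18 PFC libraries the log2 level of Per2 rose with the share, with Pearson's r = 0.723 (permutation p = 0.00065, adjusted p = 0.0115 over all genes) and Spearman's rho = 0.608 (permutation p = 0.0086, adjusted p = 0.0750). Without rats B2 and B3, the 2 farthest from the median share, r was 0.495. With the share as a covariate the log2 preference difference of Per2 was -0.15 (adjusted p = 0.232, edgeR). Leaving out B2, B3, R7 and BR9 gave -0.19 (adjusted p = 0.164), in a fit of fewer risk-averse rats. The drop was largest with the ambiguous share, the pairs that overlap more than 1 gene, which was 0.655% ± 0.0417 of gene-overlapping pairs for risk-averse rats in PFC against 0.719% ± 0.0331 for risk-seeking rats (SD, n = 9 each). With it as a covariate Per2 was at -0.13 (adjusted p = 0.771). In these 3 fits the share of all genes that passed was 2.21%, 0.00649% and 0.0%, so the loss was general. A correlation with the share that passed the adjusted threshold was found for 18.6% of all genes in PFC and 29.8% in NAc, and for 2 of the 6 clock genes in each region. These were Per2 and Clock (r = 0.628, permutation p = 0.0052, adjusted p = 0.0349) in PFC, and Per2 (r = 0.627, permutation p = 0.00426, adjusted p = 0.0193) and Arntl (r = -0.739, permutation p = 0.00051, adjusted p = 0.00404) in NAc. By Spearman's rho only Arntl in NAc passed (rho = -0.703, permutation p = 0.00143, adjusted p = 0.0130), where 5.47% of all genes passed in PFC and 23.1% in NAc, and these 12 relations were looked at after the data had been seen. Without rats B2 and B3, the r of Clock in PFC was 0.415, and those of Per2 and Arntl in NAc were 0.584 and -0.677. In the 4 rats of highest share, all risk-averse, the share and preference cannot be told apart.

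Per1 in PFC ran from 68.5 to 167 CPM (median 121) in risk-averse and from 71.8 to 117 CPM (median 89.8) in risk-seeking rats, with means of 118 ± 28.6 and 91.02 ± 17.2 CPM (SD, n = 9 each). The lowest Per1 of all 18 libraries was in a risk-averse rat, BR9, and so was the highest, R7. Of the 9 risk-averse rats, 6 lay above every risk-seeking rat, and all 9 risk-seeking rats lay below the risk-averse median. The log2 difference was -0.39 ± 0.14 (SE, adjusted p = 0.0578, edgeR). It passed with DESeq2 (adjusted p = 0.0156) and when single rats were left out: BR9 (adjusted p = 0.0141, edgeR), BR2 (adjusted p = 0.0322), R6 (adjusted p = 0.0450) or B9 (adjusted p = 0.0489). With any other single rat left out it did not pass (adjusted p up to 0.116, edgeR). Of all genes, 26.3% passed with DESeq2, 21.7% without BR9, 27.8% without BR2, 17.7% without R6 and 19.8% without B9. In the other direction, the log2 difference was -0.32 (adjusted p = 0.262, edgeR) with the unassigned share as a covariate and -0.30 (adjusted p = 0.208) without B2, B3, R7 and BR9. It was -0.14 (adjusted p = 0.863) with the ambiguous share as a covariate.

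The other 4 genes gave smaller values in PFC. Clock was at 99.7 ± 4.70 CPM in risk-averse and 93.4 ± 6.50 CPM in risk-seeking rats (SD, n = 9 each), a log2 difference of -0.10 ± 0.05 (SE, adjusted p = 0.105, edgeR), with 6 of 9 risk-seeking rats below the lowest risk-averse rat. Without risk-seeking rat B9, Clock passed at -0.13 (adjusted p = 0.0430, edgeR), where 19.8% of all genes passed. With any other single rat left out it did not pass (adjusted p up to 0.187). The rat codes carry letters (B, BR, N or R in the sample titles), whose meaning the labels do not give. With these letters as a covariate Clock passed at -0.10 (adjusted p = 0.0458, edgeR), where 25.3% of all genes passed. Nr1d1 differed by -0.10 ± 0.06, Dbp by 0.09 ± 0.07 and Arntl by 0.06 ± 0.06 on the log2 scale (SE; adjusted p = 0.222, 0.367 and 0.470, edgeR), each with groups that overlapped through most of their range.

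**Figure D2:**
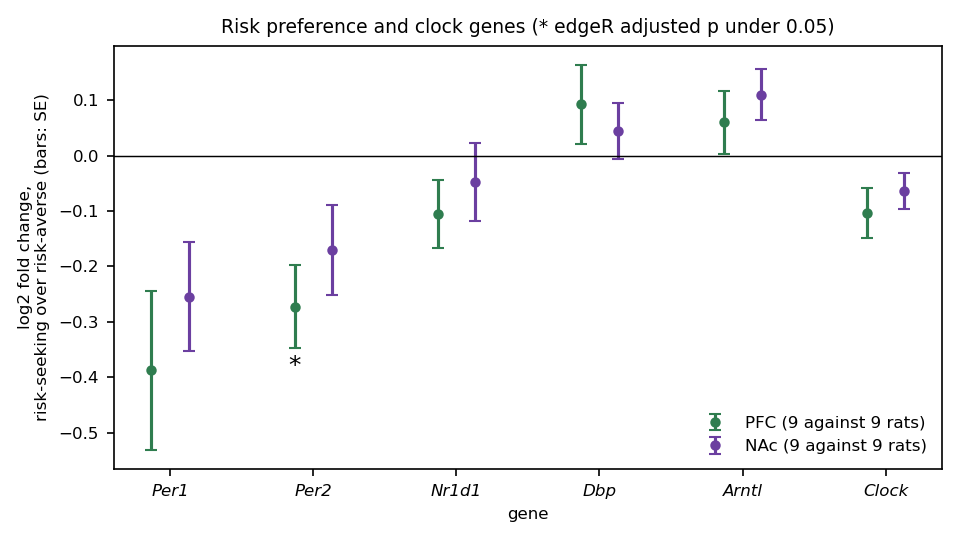
Log2 fold change of each clock gene, risk-seeking over risk-averse (vertical axis), in PFC (green) and NAc (purple), 9 against 9 rats each; points are edgeR estimates, bars are SE and the horizontal line is no difference. Per1, Per2, Nr1d1 and Clock lay below the line and Dbp and Arntl above it in both regions, and only Per2 in PFC, at -0.27, passed the adjusted threshold (asterisk).

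In NAc the same 4 genes were lower and the same 2 higher in risk-seeking rats. The regions come from largely the same rats, so the repeat of a direction is not independent. Per1 was at 137 ± 25.2 CPM in risk-averse and 116 ± 15.9 CPM in risk-seeking NAc (SD, n = 9 each), a log2 difference of -0.26 ± 0.10 (SE, adjusted p = 0.185, edgeR). Per2 was at 62.2 ± 8.32 and 55.5 ± 6.83 CPM (SD, n = 9 each), a difference of -0.17 ± 0.08 (SE, adjusted p = 0.275). All 9 risk-seeking rats lay below the risk-averse median for Per1, and 7 of 9 did for Per2.

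Arntl, by contrast with the Per genes, was at 39.8 ± 2.79 CPM in risk-averse and 43.2 ± 2.62 CPM in risk-seeking NAc (SD, n = 9 each), a log2 difference of 0.11 ± 0.05 (SE, adjusted p = 0.215, edgeR), with 8 of 9 risk-seeking rats above the risk-averse median. Clock differed by -0.06 ± 0.03 (SE, adjusted p = 0.318), and all 9 risk-seeking rats lay below the risk-averse median. Nr1d1 and Dbp differed by -0.05 ± 0.07 and 0.04 ± 0.05 (SE, adjusted p = 0.768 and 0.697). At an unadjusted p under 0.05, 3 clock genes (Per1, Per2 and Arntl) and 2748 of 15418 genes were reached in NAc by edgeR, and DESeq2 called 533 genes, none of them a clock gene.

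An interaction term compared the preference differences of the regions with each other, again in a fit without a term for the animal. No clock gene passed and 0.0% of 15936 genes did (edgeR, with 387 genes and no clock gene at an unadjusted p under 0.05, and no gene by DESeq2). Per1 had the largest interaction estimate, -0.12 ± 0.18 on the log2 scale (SE, adjusted p = 0.981), and Per2 the next, -0.10 ± 0.11 (SE, adjusted p = 0.981). Per2 passing in PFC and not in NAc is therefore not shown to be a difference between regions.

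Set in order over the 4 groups, Per2 fell from risk-averse PFC through risk-seeking PFC to risk-averse NAc and risk-seeking NAc, and its only gap without overlap was between the regions. Per1 was highest in risk-averse NAc and lowest in risk-seeking PFC, while risk-averse PFC (118 CPM) and risk-seeking NAc (116 CPM) differed by less than their SDs. Dbp and Arntl had their highest mean in risk-seeking rats of the region where each was higher, at 282 ± 18.6 CPM in NAc for Dbp and 46.4 ± 2.94 CPM in PFC for Arntl (SD, n = 9). In both cases the step to the risk-averse group of that region, 273 ± 23.0 and 44.2 ± 4.56 CPM (SD, n = 9), was smaller than either SD.

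Rats differed from one another far more in Per1 than in Clock. Per1 in PFC spanned 2.44-fold from rat BR9 to rat R7, with an SD of 0.37 on the log2 scale, and 8.27% of the 13774 genes with a mean CPM of at least 1 were as variable over the 18 PFC libraries. In NAc Per1 spanned 2.12-fold. Per2 spanned 1.59-fold in either region. Clock spanned 1.29-fold in PFC and 1.18-fold in NAc, where its SD of 0.06 was equalled or exceeded by 99.5% of 13941 genes. Nr1d1, Dbp and Arntl lay between, at 1.33-fold to 1.43-fold over both regions. Per1, then Per2, varied most and Clock least in both regions.

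The third comparison asked whether the regions of a rat stood alike. With a single sampling per rat and no hour of sampling in the labels used here, phase itself was not measured; what was compared is whether a rat that was high for a gene in PFC was also high for it in NAc. For Per1, Per2 and Dbp it was, and for Arntl and Clock no such relation was found. Over the 17 rats with both regions, the median Pearson's r of log2 CPM between regions was 0.489 for the 14765 genes tested (quartiles 0.270 and 0.662), and 40.1% of them passed the permutation test with a positive r at an adjusted p under 0.05, against 3 of the 6 clock genes. A positive r was therefore common in these libraries, and the clock genes are placed against that spread.

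**Figure D3:**
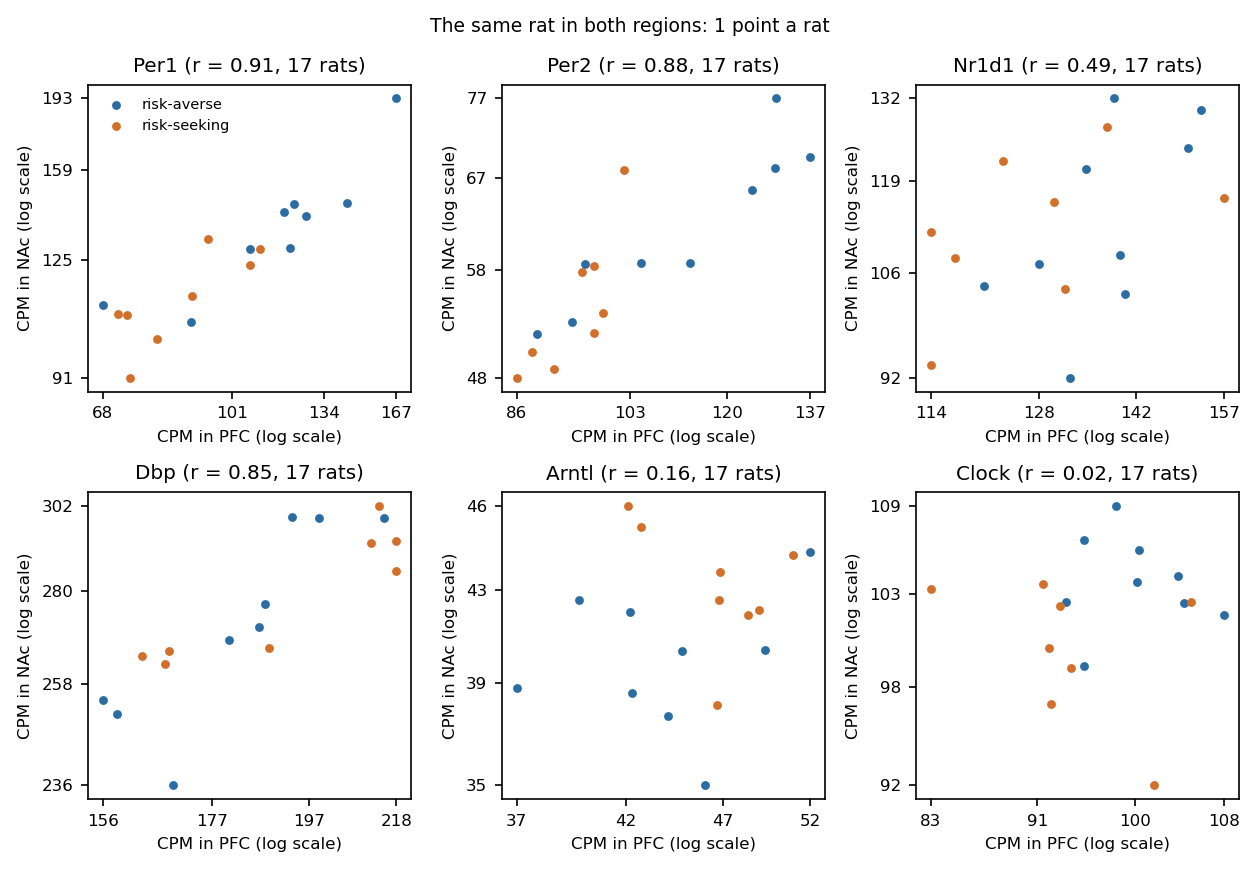
Each clock gene in PFC (horizontal axis) against NAc (vertical axis), both in CPM on log scales, 1 point for each of 17 rats, blue for risk-averse and orange for risk-seeking. Points follow a rising line for Per1 (r = 0.91), Per2 (0.88) and Dbp (0.85), scatter about one for Nr1d1 (0.49) and form no line for Arntl (0.16) or Clock (0.02).

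Per1 had r = 0.906 (two-sided permutation test, p = 1e-05, the smallest that 100000 resamples can give, adjusted p = 0.000513 over all genes) and rho = 0.882 (permutation p = 2e-05, adjusted p = 0.00186). Only 0.962% of genes had an r as high. Rat R7 had the highest Per1 in both regions, 167 CPM in PFC and 193 CPM in NAc. Rat R1, at 74.3 and 90.7 CPM, was among the 4 lowest in PFC and the lowest in NAc. Without R7 and BR9, the rats farthest from the PFC median, r was 0.8999. It was 0.892 in the 9 risk-averse and 0.800 in the 8 risk-seeking rats.

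Per2 had r = 0.881 (permutation p = 2e-05, adjusted p = 0.000701) and rho = 0.926 (permutation p = 1e-05, adjusted p = 0.00143), with 1.87% of genes as high. Rat R1 was the lowest in both regions, at 86.0 and 48.2 CPM, and R7, B2 and R4 were the 3 highest in NAc, at 76.7, 69.5 and 68.3 CPM, and also the 3 highest in PFC, at 129.5, 137 and 129 CPM. Without R7 and B2 r was 0.828. Within preference groups it was 0.923 (risk-averse, n = 9) and 0.807 (risk-seeking, n = 8).

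Dbp had r = 0.849 (permutation p = 5e-05, adjusted p = 0.00112) and rho = 0.846 (permutation p = 4e-05, adjusted p = 0.00264), with 3.57% of genes as high. It did so on a narrow range, 1.40-fold in PFC and 1.33-fold in NAc, and with no preference difference that passed in either region. The 6 rats lowest in PFC, at 156 to 169 CPM, were also the 6 lowest in NAc, at 236 to 265 CPM. They were R4, B3 and B2 among risk-averse and B9, B5 and R2 among risk-seeking rats. Without R4 and B3 r was 0.812, and it was 0.865 in risk-averse and 0.908 in risk-seeking rats.

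Dbp also moved with the letters of the rat codes, which was seen only after the data had been examined. The 4 rats coded B, 2 of each preference, were at 159 to 169 CPM in PFC and 236 to 264 CPM in NAc, below every rat coded BR (180.2 to 218 and 268 to 292 CPM) or N (186 to 214 and 271 to 313 CPM) in either region. Rats coded R spanned both levels, at 156 to 216 CPM in PFC and 254 to 299 CPM in NAc. How many of all genes set the rats coded B apart in this way was not counted. As residuals on these letters, r between regions was 0.740 for Dbp (adjusted p = 0.00355), 0.922 for Per1 and 0.915 for Per2 (adjusted p = 0.000204 for both, permutation test). In that run 46.1% of all genes passed.

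For each of Per1, Per2 and Dbp, 15 of 17 rats lay on the same side of the median in both regions. The number was 13 for Nr1d1 and 11 for both Arntl and Clock, and it was not taken over all genes. Nr1d1 was at the middle of the gene distribution, with r = 0.494 (permutation p = 0.0444, adjusted p = 0.0897) and rho = 0.451 (permutation p = 0.0710, adjusted p = 0.139), and 49.3% of genes had an r as high. Without the rats BR4 and B9 its r was 0.405, and within preference groups it was 0.596 and 0.499. Rats N6, R7 and BR9 were high in both regions and B9 low in both, but R9, the middle rat of the 17 in PFC at 132 CPM, was the lowest in NAc at 92.5 CPM.

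Arntl and Clock were below most genes. Arntl had r = 0.158 (permutation p = 0.543, adjusted p = 0.627) and rho = 0.172 (permutation p = 0.509, adjusted p = 0.607), and 83.9% of genes had an r as high. Clock had r = 0.023 (permutation p = 0.928, adjusted p = 0.947) and rho = 0.096 (permutation p = 0.715, adjusted p = 0.786), with 91.5% of genes as high. Without the 2 rats farthest from the PFC median r was 0.092 for Arntl and 0.119 for Clock. Within the risk-averse rats r was 0.202 for Arntl and -0.073 for Clock (n = 9), and within the risk-seeking rats -0.461 and -0.399 (n = 8). Over these 17 rats the SD of log2 CPM in PFC was 0.13 for Arntl and 0.09 for Clock, against 0.17 for Dbp. In NAc it was 0.109 for Arntl and 0.058 for Clock, against 0.104 for Dbp. The part of this spread in the low r of Arntl and Clock was not tested. Rat BR4 shows the pattern for Clock, lowest of 17 in PFC at 83.3 CPM and at 104 CPM in NAc, above the NAc median of 103 CPM.

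**Figure D4:**
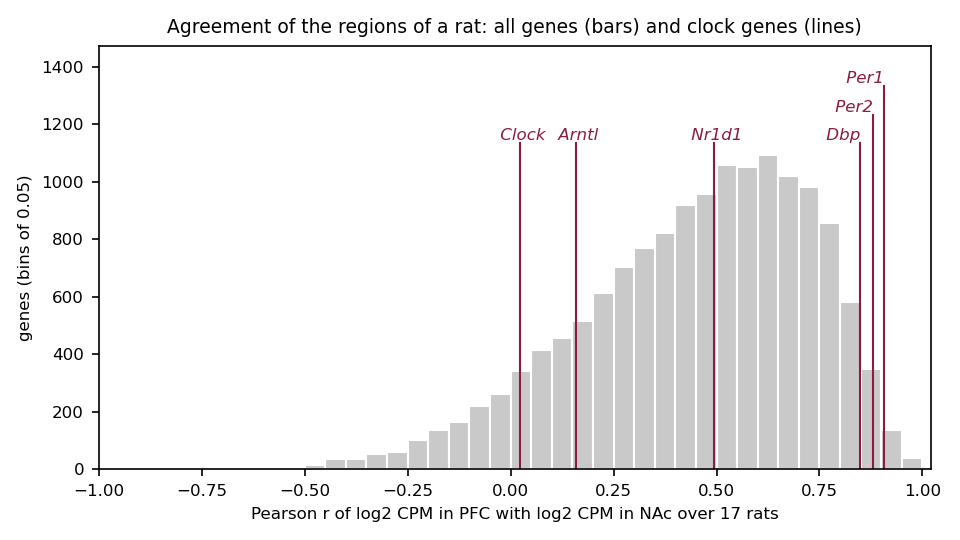
Distribution over 14765 genes (bars, number of genes in bins of 0.05) of Pearson's r between PFC and NAc over 17 rats (horizontal axis), with the 6 clock genes as labelled lines. Dbp, Per2 and Per1 stand in the upper tail between 0.85 and 0.91, Nr1d1 at the centre near the median of 0.489, and Arntl and Clock on the lower side at 0.16 and 0.02.

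Counted by rat over all 6 genes, 3 rats lay on the same side of the median in PFC and NAc for all 6. They were BR2, R4 and R7, all risk-averse. Another 8 rats did so for 5 genes, 4 rats for 4 and 2 rats for 3. The 8 rats were risk-averse BR9, N6 and R9 and risk-seeking B9, N1, N3, R1 and R2. The 4 rats were risk-averse B2, B3 and N7 and risk-seeking BR5. Rat R7 was above the median for Per1, Per2, Nr1d1 and Dbp and below it for Arntl in both regions. Rats B5 and BR4, both risk-seeking, had the fewest genes on the same side. These counts describe the rats, were not tested and were not made over all genes, for which the median r between regions was 0.489.

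The last question was which clock genes rose and fell together from rat to rat within a region. Across all pairs of a clock gene with any gene, 6.47% passed in PFC and 2.65% in NAc (permutation test of Pearson's r over 18 rats, adjusted over all such pairs of the region). Among the 15 pairs of clock genes, 3 passed in PFC and 1 in NAc.

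Per1 and Per2 rose and fell together in both regions, at r = 0.762 in PFC (permutation p = 0.00019, adjusted p = 0.0171) and r = 0.822 in NAc (permutation p = 1e-05, the smallest possible, adjusted p = 0.0128). By Spearman's rho the values were 0.715 (permutation p = 0.00115, adjusted p = 0.0621) and 0.800 (permutation p = 9e-05, adjusted p = 0.0416). Without the 2 rats farthest from the median, r was 0.690 and 0.703. Within the preference groups r in PFC was 0.779 in risk-averse and 0.354 in risk-seeking rats (n = 9 each), against 0.768 and 0.796 in NAc. The SD of log2 Per2 in PFC was 0.23 in risk-averse and 0.08 in risk-seeking rats, and its part in these values was not tested. As deviations from the preference group means, the PFC value was 0.665 (adjusted p = 0.102) and the NAc value 0.778 (adjusted p = 0.0303).

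Nr1d1 and Arntl moved against each other in PFC, at r = -0.734 (permutation p = 0.00051, adjusted p = 0.0227) and rho = -0.781 (permutation p = 0.00018, adjusted p = 0.0420). Rats B9 and BR2, both low for Nr1d1 at 114 and 121 CPM, had the 2 highest Arntl levels, 50.9 and 51.9 CPM. R7, high for Nr1d1 at 153 CPM, had the lowest Arntl, 37.1 CPM. Within preference groups r was -0.750 and -0.778 (n = 9 each), and without the 2 rats farthest from the median -0.722. In NAc the same pair had r = -0.177 (permutation p = 0.479, adjusted p = 0.715) and rho = -0.201 (permutation p = 0.418, adjusted p = 0.696).

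Dbp and Clock were likewise opposed in PFC, at r = -0.774 (permutation p = 0.00023, adjusted p = 0.0179) and rho = -0.771 (permutation p = 0.00046, adjusted p = 0.0509). The sign held within the groups, at -0.783 in risk-averse and -0.752 in risk-seeking rats (n = 9 each), and r was -0.724 without the 2 farthest rats. In NAc r was 0.106 (permutation p = 0.678, adjusted p = 0.844) and rho 0.084 (permutation p = 0.740, adjusted p = 0.889). The difference between regions in these r values was not tested. Without B2, B3, R7 and BR9, 14 rats were left in each region, none of the 90762 pairs in PFC or the 92502 in NAc passed, and r for the pairs that had passed was 0.520 (Per1 with Per2), -0.698 (Nr1d1 with Arntl) and -0.743 (Dbp with Clock) in PFC and 0.679 (Per1 with Per2) in NAc.

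**Figure D5:**
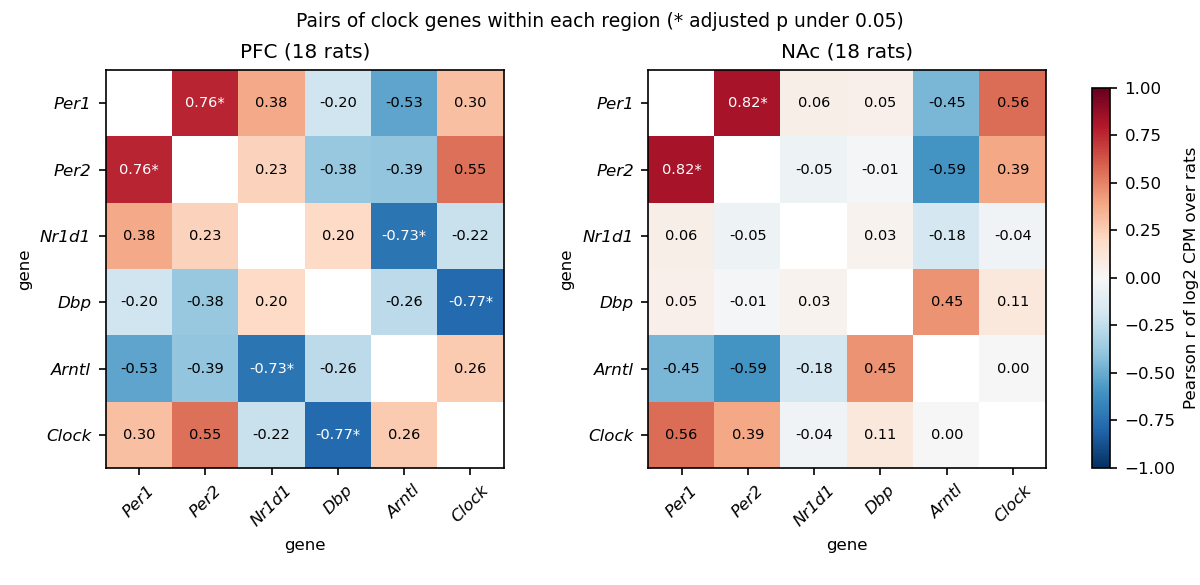
Pearson's r of log2 CPM between clock genes over 18 rats in PFC (left) and 18 in NAc (right). Red is positive and blue negative, and an asterisk marks an adjusted p under 0.05: Per1 with Per2 is marked in both regions, and Nr1d1 with Arntl (-0.73) and Dbp with Clock (-0.77) in PFC only.

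The remaining pairs did not pass. Arntl had a negative r with both Per genes in both regions, -0.526 with Per1 and -0.392 with Per2 in PFC (permutation p = 0.0249 and 0.107, adjusted p = 0.131 and 0.284), and -0.454 and -0.594 in NAc (permutation p = 0.0581 and 0.00901, adjusted p = 0.256 and 0.110). Without the 2 farthest rats these values were -0.411 and -0.189 in PFC and -0.453 and -0.597 in NAc. Spearman's rho was -0.513 and -0.185 in PFC (permutation p = 0.0316 and 0.464) and -0.531 for both in NAc (permutation p = 0.0246 and 0.0248). The partners Arntl and Clock had r = 0.260 in PFC (permutation p = 0.296, adjusted p = 0.508, rho = 0.284) and showed no relation in NAc (r rounds to 0.00, permutation p = 0.999, rho = 0.049). Dbp, which shares its activator with the Per genes, had r of -0.200 with Per1 and -0.377 with Per2 in PFC (permutation p = 0.421 and 0.124) and of 0.055 and -0.014 in NAc (permutation p = 0.831 and 0.956). No relation of Dbp with a Per gene passed, although each of the 3 genes matched between the regions of a rat.

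Measured against every gene with a mean CPM of at least 1 in both regions (13394), Per2 ranked 7th in likeness to Per1 and Per1 ranked 10th in likeness to Per2, where likeness is the smaller of the r values over the 18 PFC and the 18 NAc libraries. The next highest rank of a clock gene in the list of another was 1152, for Per2 in the list of Clock. For Dbp the most alike genes were ENSRNOG00000020213 (r = 0.762 in PFC and 0.746 in NAc) and ENSRNOG00000005102 (0.715 and 0.726), and the most opposite were ENSRNOG00000025494 (-0.663 and -0.675) and ENSRNOG00000027770 (-0.732 and -0.649). These values describe the genes ranked highest among many and carry no test.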

How the data were processed

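RNA was measured in 36 libraries from PFC and NAc of 19 rats. Per the labels' protocols, total RNA (miRNeasy) was made into TruSeq RNA v2 libraries and sequenced as paired ends on a NovaSeq instrument. The tools, per the submitters' processing notes, were Trimmomatic, STAR 2.5.3a, HTSeq 0.9.0 and edgeR, and the genome was Rnor_6.0 (rn6). The annotation release and the strand setting were not given in the sources used here: overlapping and antisense genes cannot be told apart. The deposited values are whole-number read counts for 32623 Ensembl identifiers, with no normalisation applied by the authors. Their 5 summary rows were kept out of library sizes and tests, and of these the unassigned share took 22.1% to 33.0% of uniquely aligned pairs.

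Groups follow the labels, and rats follow the codes in the sample titles. The 144 pairs of libraries within groups differed by 6.97 to 44.9 times sampling noise in chi-square over its degrees of freedom, and no pair was treated as a repeat. Titles pair the regions of 17 rats, and the deviations of same-rat libraries from their group means correlated at 0.113 to 0.537 in each of the 17.

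Genes were filtered by filterByExpr, scaled by TMM, and tested by the robust quasi-likelihood fit of edgeR 4.0.16 (R 4.3.3), with Benjamini-Hochberg adjustment over all genes tested and a threshold of 0.05. The region test used all 36 libraries with preference as a covariate, preference was tested within each region, and the interaction used all libraries. Except in the replicate block, the region and interaction fits held no term for the animal. Libraries of the same rat were thus treated as independent in them. Each SE was taken as the size of the log2 fold change divided by the root of its F statistic. Correlations used log2 CPM with a prior count of 2 and a two-sided permutation test of 100000 resamples, adjusted over all genes or all member-by-gene pairs. Alternatives were DESeq2 1.42.0, limma-voom (limma 3.58.1), RLE factors, other filters, read-category covariates, a replicate block, rank correlation, a prior count of 0.5 and leaving out libraries. The letters of the rat codes as a covariate were added after seeing the data. The edgeR tests were checked on simulated counts drawn without an animal effect, and the permutation tests on simulated normal values.

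The 6 genes, the motifs and the rule for naming genes (all 6 in every comparison, and for Dbp the 2 most alike and 2 most opposite identifiers) were chosen with earlier results of these data known. Because 0 identifiers matched the gene table, the lists of other clock, activity-regulated and glucocorticoid-induced genes and of cell type markers were not analysed here. Promoters were matched by symbol to RefSeq windows (GRCr8, not the build of the counts), and all 6 symbols matched, with 8 windows.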

Additional observations from a re-analysis of the deposited data

Results flagged for a closer look

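Among the 24 sets of 9 values (6 clock genes in 4 groups), 1 held a value far from the other 8. Per1 in NAc of the risk-averse rat R7 was at 192.5 CPM, against 106 to 145 CPM in the other risk-averse rats, and its gap to the nearest was 0.545 of the range of the group. About 1 set in 20 is marked in this way by chance, or 1.2 of 24. The same rat had the highest Per1 in PFC, 167 CPM. Without R7 the r of Per1 between regions over 16 rats was 0.878, the lowest of the values with 1 rat left out (0.878 to 0.924).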

How the results depend on the processing

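With the unassigned share as a covariate, 3 clock genes differed between regions and 0 with preference in PFC. The count for preference in PFC was also 0 with the ambiguous share as a covariate and without the 4 rats of highest unassigned share. It was 2 with DESeq2 and with all 4 groups in 1 fit (Per1 and Per2), and 2 with the letters of the rat codes as a covariate (Per2 and Clock). The share of all genes that passed was 26.3% with DESeq2, 23.3% with all 4 groups in 1 fit and 25.3% with the letters. Leaving out 1 library gave 1 to 3: 3 without B9 (Per1, Per2 and Clock), 2 without BR2, BR9 or R6 (Per1 and Per2). Of all genes, 19.8% passed without B9, 27.8% without BR2, 21.7% without BR9 and 17.7% without R6. Per2 passed in each of the 18 fits with 1 library left out (adjusted p 0.00564 to 0.0332, edgeR). Over all genes the count in PFC was 3521, and 334, 0 and 1 with the unassigned covariate, the ambiguous covariate and without the 4 rats. It was also 2264 without B3 and 4227 without BR2. In NAc it was 533 with DESeq2 and 944 without R9, in place of 0, with no clock gene among them.

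With the animal as a replicate block, paired by the titles, all 6 clock genes again passed between regions (log2 difference 0.83 for Per2, -0.56 for Dbp, -0.30 for Per1), 0 passed for the interaction (adjusted p 0.511 to 0.921), and no call changed.

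The regional agreement of Per1, Per2 and Dbp passed in each alternative run, while the count over all genes went from 5929 to 2943 with residuals on the unassigned share and to 901 without the 4 rats. Values that changed sign were all among those that had not passed. For agreement, Arntl had r = -0.017 as deviations from preference means, -0.029 as residuals on the unassigned share and -0.0060 without the 4 rats. Clock had -0.286 as deviations and -0.038 without the 4 rats, and -0.047 to 0.196 when 1 rat was left out. For preference, Dbp in PFC went to -0.12 and Nr1d1 in NAc to 0.068 with the ambiguous covariate, and Nr1d1 in NAc to 0.0014 without the 4 rats. For pairs in NAc, Arntl with Clock was 0.049 by rank, 0.393 as deviations, 0.010 as residuals and 0.183 without the 4 rats, and Dbp with Clock was -0.142 with the rat-code letters. Per2 with Dbp in NAc was 0.046 by rank, 0.106 as deviations, 0.429 as residuals, 0.137 with the letters and 0.235 without the 4 rats. Per1 with Dbp was -0.049 by rank in NAc and 0.063 with the letters in PFC. Over all 15 pairs of clock genes, 2 in PFC and 7 in NAc changed sign under at least 1 of 6 alternatives, none of them a pair that had passed.

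Of the 3 pairs in PFC, 1 passed by rank (Nr1d1 with Arntl), 1 as deviations (Dbp with Clock) and 0 without the 4 rats, where 0.862%, 0.602% and 0.0% of all pairs with a clock gene passed, against 6.47%. The NAc pair was at 0 only without the 4 rats. The cause of these changes was not tested. Motif matches were the same with 50 bases after the start included. Depth did not limit these genes, the lowest count being 692.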
